A study of Homo sapiens with 2 samples.

Results

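The 9 genes described here encode receptors for growth factors of blood and vascular progenitors: KIT, PDGFRA, KDR, FLT3, FLT1, CSF1R, CSF3R, CSF2RB and EPOR. They were taken by name from the 35812 gene symbols that carry a read count in a map of H3K9me3, trimethylation of histone H3 at lysine 9. No cutoff on a measured value was used, but earlier results of these data were known when they were chosen. All 9 were found. The map was made by chromatin immunoprecipitation and sequencing in KBM7, a near-haploid chronic myeloid leukemia line for which the labels name no treatment. The series has 2 libraries, 1 of H3K9me3 (Abcam antibody ab8898) and 1 of IgG as control, both from chromatin fixed with 1% formaldehyde and sheared to about 300 bp, with 5 µg of antibody per precipitation. The IgG library was not used here. Every value below therefore describes a single H3K9me3 library, with no replicate and no control beside it, and no difference was tested. A histone mark measures no expression, so the labelled cell type could not be checked against marker levels.

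These receptors fall into families with different wiring. PDGFRA, KIT, FLT3 and CSF1R are class III receptor tyrosine kinases, which carry immunoglobulin-like domains outside the cell and a split kinase domain inside it, and FLT1 and KDR are the related receptors of vascular endothelial growth factor. CSF3R, CSF2RB and EPOR are type I cytokine receptors, which have no kinase of their own and signal through JAK kinases and STAT factors. H3K9me3 is bound by HP1 proteins and is best known from heterochromatin, silenced repeats and clusters of zinc finger genes. It usually lies in broad domains and is typically low at the start sites of active genes. The mark was read in 2 ways. The gene score is the number of reads per kb over the whole gene interval, so that levels can be compared between genes of different length, and peaks are the regions the authors called as enriched.

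No peak lay over the start of any of the 9 genes, which is close to the shares of 8.58% over all symbols and 7.42% over protein-coding ones. The sequence just before the start is given first for the receptors that frame the results. Each run holds the 250 bases before the RefSeq start (GRCh38.p14), 5′ to 3′ on the gene's strand, and capitals mark CG dinucleotides, the sites of DNA methylation. The 3 neighbours PDGFRA, KIT and KDR are shown because they share a region but differ in CG content, and FLT1 because its first part holds much of its peak cover. For PDGFRA the run shown is that before the outer of its 2 RefSeq starts, and the contrast depends on this choice.
PDGFRA: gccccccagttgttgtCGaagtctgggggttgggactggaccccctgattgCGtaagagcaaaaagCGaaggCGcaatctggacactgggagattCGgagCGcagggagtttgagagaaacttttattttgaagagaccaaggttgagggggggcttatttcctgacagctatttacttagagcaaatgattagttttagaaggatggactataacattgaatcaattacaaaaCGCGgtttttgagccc
KIT: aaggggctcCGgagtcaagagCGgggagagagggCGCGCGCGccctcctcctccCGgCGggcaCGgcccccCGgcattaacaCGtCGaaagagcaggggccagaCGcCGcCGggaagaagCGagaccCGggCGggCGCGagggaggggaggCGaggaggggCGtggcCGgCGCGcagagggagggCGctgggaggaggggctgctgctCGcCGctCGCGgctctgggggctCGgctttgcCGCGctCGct
KDR: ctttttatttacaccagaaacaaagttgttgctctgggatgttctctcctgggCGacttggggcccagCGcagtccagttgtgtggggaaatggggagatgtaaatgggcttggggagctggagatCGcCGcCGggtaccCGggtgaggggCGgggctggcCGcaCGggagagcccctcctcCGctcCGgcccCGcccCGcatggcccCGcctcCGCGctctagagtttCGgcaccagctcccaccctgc
FLT1: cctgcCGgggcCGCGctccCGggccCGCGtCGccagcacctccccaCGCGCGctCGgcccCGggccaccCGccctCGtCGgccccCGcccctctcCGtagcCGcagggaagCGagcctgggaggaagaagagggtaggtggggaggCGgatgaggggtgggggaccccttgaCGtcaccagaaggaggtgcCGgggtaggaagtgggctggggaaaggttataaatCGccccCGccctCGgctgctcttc
The KIT run held 34 CG dinucleotides, more than 93.9% of 27305 promoters of the same length, whose median was 11 with quartiles of 3 and 23. FLT3 held 26, FLT1 25, KDR 17 and EPOR 10. The outer start of PDGFRA held 8, and a second RefSeq start of the gene held 25. CSF1R held 6 and CSF3R 3 at their outer starts. Promoters of 8 of the 9 receptors were matched, and CSF2RB had no entry. At least 1 CG was found in 93.6% of all promoters. These counts describe the sequence only and were not tested against the mark.

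The EPOR promoter is given again with another motif in capitals, because EPOR is a textbook target of GATA factors in red cell precursors. The letters AGATAA, a core GATA motif, were searched on both strands, and a match cannot overlap a CG.
EPOR: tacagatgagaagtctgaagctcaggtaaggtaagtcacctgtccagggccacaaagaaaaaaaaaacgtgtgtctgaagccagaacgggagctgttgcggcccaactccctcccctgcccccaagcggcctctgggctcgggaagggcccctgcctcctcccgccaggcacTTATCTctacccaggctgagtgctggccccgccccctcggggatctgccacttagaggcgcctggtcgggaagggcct
The match reads TTATCT on the gene's strand and lies 78 to 73 bases before the start. AGATAA was found in 9.37% of all promoters. Among the outer promoters of the matched receptors it was found in EPOR only. A match of letters is a description and not a bound site.

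The 9 receptors spread over a wide range of H3K9me3 levels, with PDGFRA, KDR and FLT1 at the top and EPOR at the bottom. PDGFRA, the alpha receptor of platelet-derived growth factor, had a gene score of 77.5 reads per kb (95% Poisson interval 75.5 to 79.6, 5360 reads over 69.151 kb). KDR, the main signalling receptor of vascular endothelial growth factor in endothelial cells, scored 77.4 (74.9 to 80.0, 3648 reads). FLT1, which binds the same ligand with high affinity and weak kinase activity, scored 74.3 (73.0 to 75.5, 14463 reads). The intervals of these 3 overlapped, so their order is not resolved by counting error, which is the only error these intervals cover.

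KIT, the receptor of stem cell factor, followed with 50.4 reads per kb (48.9 to 52.0, 4177 reads). FLT3, the receptor through which FLT3 ligand acts on early progenitors and dendritic cell precursors, scored 38.9 (37.7 to 40.2, 3788 reads). CSF2RB, the beta chain shared by the receptors of GM-CSF, IL-3 and IL-5, scored 34.9 (32.7 to 37.2, 936 reads). CSF1R, the M-CSF receptor of monocytes and macrophages, scored 34.1 (32.6 to 35.6, 2049 reads), and its interval overlapped that of CSF2RB. CSF3R, the G-CSF receptor of the neutrophil lineage, scored 27.1 (24.7 to 29.7, 467 reads). EPOR, the erythropoietin receptor, scored 17.7 (14.7 to 21.0, 126 reads). All other neighbours in this order were separated by their intervals. The PDGFRA score was 1.54 times that of KIT and 4.39 times that of EPOR.

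**Figure D1:**
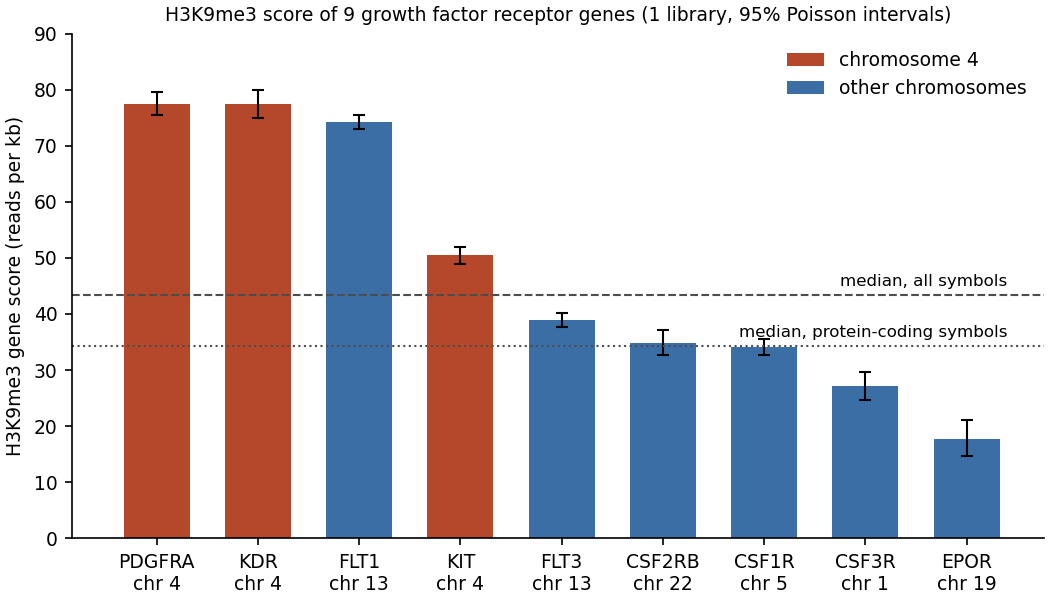
H3K9me3 gene score in reads per kb for the 9 receptors, in order of score (bars, red for chromosome 4), with exact 95% Poisson intervals as error bars. The dashed and dotted lines are the medians of all symbols and of protein-coding symbols. PDGFRA, KDR and FLT1 sit between 74.3 and 77.5, KIT at 50.4, and EPOR lowest at 17.7.

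As a set, the receptors lay near the middle of the library, with members on both sides. Their median score was 38.9, beside 43.5 over all symbols and 34.3 over symbols matched to protein-coding genes. A score above the median of all symbols was found in 4 of 9 receptors, beside 50.0% of all symbols and 37.5% of protein-coding symbols. A score above the protein-coding median was found in 6 of 9, beside 50.0%. PDGFRA and KDR lay at the 86.3 percentile of protein-coding genes, FLT1 at 84.9 and KIT at 69.4. FLT3, CSF2RB and CSF1R lay near the middle, at 56.8, 50.8 and 49.6. CSF3R lay at 38.6 and EPOR at 19.6. Among all symbols every percentile was lower, at 75.2 for PDGFRA and KDR, 73.6 for FLT1 and 56.9 for KIT. There FLT3 lay at 44.8, CSF2RB at 39.6, CSF1R at 38.6, CSF3R at 29.5 and EPOR at 15.8. Among genes of 0.5 to 2 times their own length PDGFRA stood at 89.3, KDR at 88.4, FLT1 at 87.6 and EPOR at 23.9.

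By peak cover, PDGFRA and FLT1 stood above the other 7 receptors. A peak called by the authors overlapped 6 of the 9 genes, beside 36.8% of all symbols and 43.7% of protein-coding symbols. PDGFRA held 16 peaks that covered 32.1% of the gene, and FLT1 held 29 peaks that covered 22.6%. KDR, with the same score as PDGFRA within counting error, held only 2 peaks that covered 8.28%. CSF2RB held 1 peak of 1200 bp, 4.47% of the gene. KIT held 4 peaks (3.62%) and FLT3 held 3 (2.62%). CSF1R, CSF3R and EPOR held none. Longer genes have more room for a peak. Of genes of like length, 88.4% held a peak for FLT1, 72.9% for FLT3, 68.4% for KIT, 63.6% for PDGFRA and 53.4% for KDR. The same share was 59.6% for CSF1R, which held none, and 24.1% for EPOR. The 55 peaks in the receptors had a median width of 1200 bp, beside 900 bp for all 126965 peaks.

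The starts of the receptors were free of peaks. No receptor had a peak over its start, beside 8.58% of all symbols and 7.42% of protein-coding ones, and none had a peak within 1 kb of it, beside 14.2% and 12.4%. With 9 genes, a count of 0 is close to these shares. Within 5 kb the count was 4 of 9, beside 29.0% of all symbols and 26.4% of protein-coding symbols. These 4 were PDGFRA, with a peak beginning 1.387 kb into the gene, FLT3 at 1.479 kb, FLT1 at 3.315 kb and CSF2RB at 4.631 kb, all downstream of the start. The nearest peak to the KDR start lay 9.395 kb upstream, and the nearest to the KIT start 18.235 kb upstream.

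Within the genes, the peaks were placed differently from receptor to receptor. Each gene was divided into 3 equal parts from start to end. In PDGFRA peaks covered 37.7%, 22.1% and 36.4% of the successive parts, so the cover ran through the whole gene. In FLT1 they covered 38.1%, 11.3% and 18.3%, with a stretch of 36.0 kb without any peak from 69.0 to 105.0 kb after the start. In KDR both peaks lay in the last part, which they covered by 24.8%. In KIT the first part held none and the others 4.35% and 6.52%. FLT3 showed the opposite order, with 5.09%, 2.77% and none. The widest peak of any receptor was 5400 bp, in FLT1, and the widest in PDGFRA was 2850 bp.

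**Figure D2:**
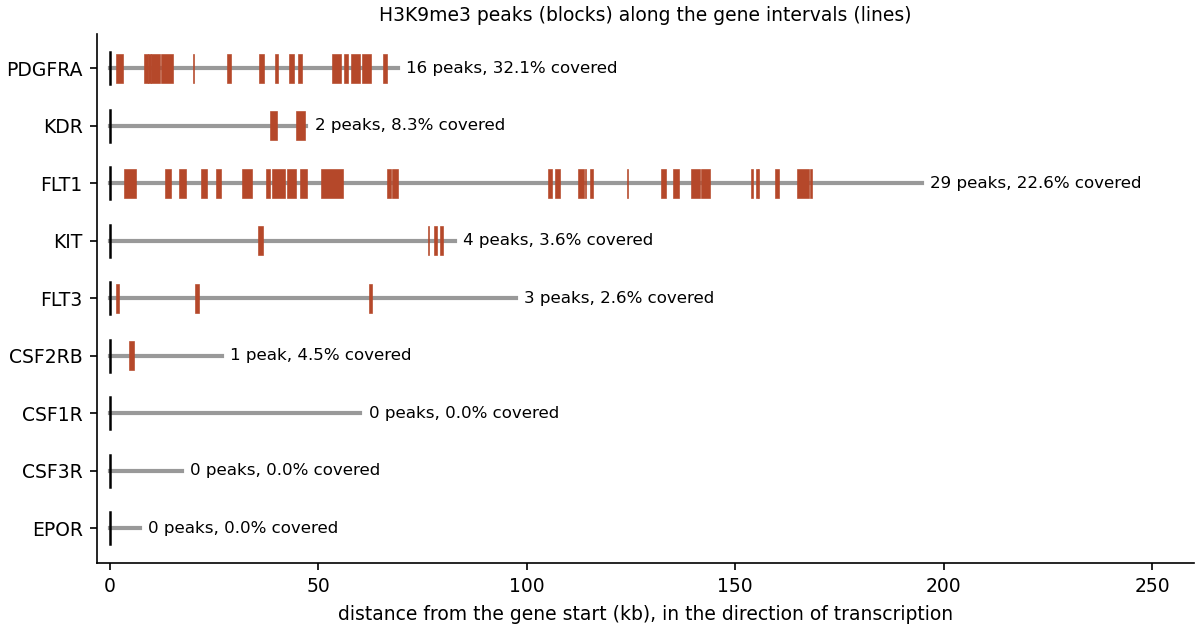
Peaks (red blocks) along each receptor gene, drawn in the direction of transcription with the distance from the start in kb on the x axis. The grey line is the gene interval, with the number of peaks and their cover at its right. PDGFRA (16 peaks) carries peaks from near the start to near the end, FLT1 (29 peaks) carries them on both sides of a gap, KDR carries 2 at its far end, and CSF1R, CSF3R and EPOR carry none.

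Some of these values are shared with overlapping intervals. The deposited interval of FIP1L1, which encodes a pre-mRNA 3′ processing factor, was 917.63 kb long and overlapped 95.7% of PDGFRA, including all 16 of its peaks. Reads in the overlap count for both genes. The FIP1L1 interval also contains the whole of LNX1, CHIC2 and GSX2, so its score of 58.1 is an average over these genes too. A transcript without a gene type, RP11-530I17.1, overlapped the last 14.058 kb of KDR, or 29.8% of the gene, and both KDR peaks lay in that stretch, covering 27.7% of it. A Y_RNA interval of 0.101 kb with 3 reads lay within CSF1R. Exons and introns of the hg19 build were not used here.

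PDGFRA, KIT and KDR stand side by side on the long arm of chromosome 4, in this order and within 896.493 kb, as products of ancient duplications of one ancestral receptor. PDGFRA occupies chr4:55095264-55164414 and KIT chr4:55524085-55606881 on the plus strand, and KDR occupies chr4:55944644-55991756 on the minus strand (hg19). The 3 Mb from 54 to 57 Mb around them held 212 peaks, or 70.7 per Mb beside 34.3 per Mb over chromosome 4. Peaks covered 7.10% of the region and 4.24% of the chromosome. Of 189 overlapping windows of 3 Mb along the chromosome, 167 had less cover than this region. The median window had 3.06% and the highest 32.0%. Windows that overlap are not separate regions.

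The cover was uneven along the region, and the KIT gene had less cover than the stretches to the next receptors had on average. From the end of the homeobox gene GSX2 to the start of PDGFRA peaks covered 6.16%, and over PDGFRA 32.1%. The 359.67 kb between PDGFRA and KIT held 38 peaks and 10.3% cover. KIT itself had 3.62%, less than the stretches on both sides but not low beside the median of 2.32% for genes of like length. The 337.762 kb between KIT and KDR held 22 peaks and 5.33%, KDR had 8.28%, and the stretch from KDR to SRD5A3, a gene of dolichol synthesis, had 8.50%. In bins of 100 kb the highest cover, 25.5%, was the bin over PDGFRA, and no bin was without a peak. The lowest bin had 1.80% and the median bin 5.48%. The bin with the KIT start had 2.10%. Left of 55.5 Mb the region had 9.66% cover, and right of it 4.53%.

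**Figure D3:**
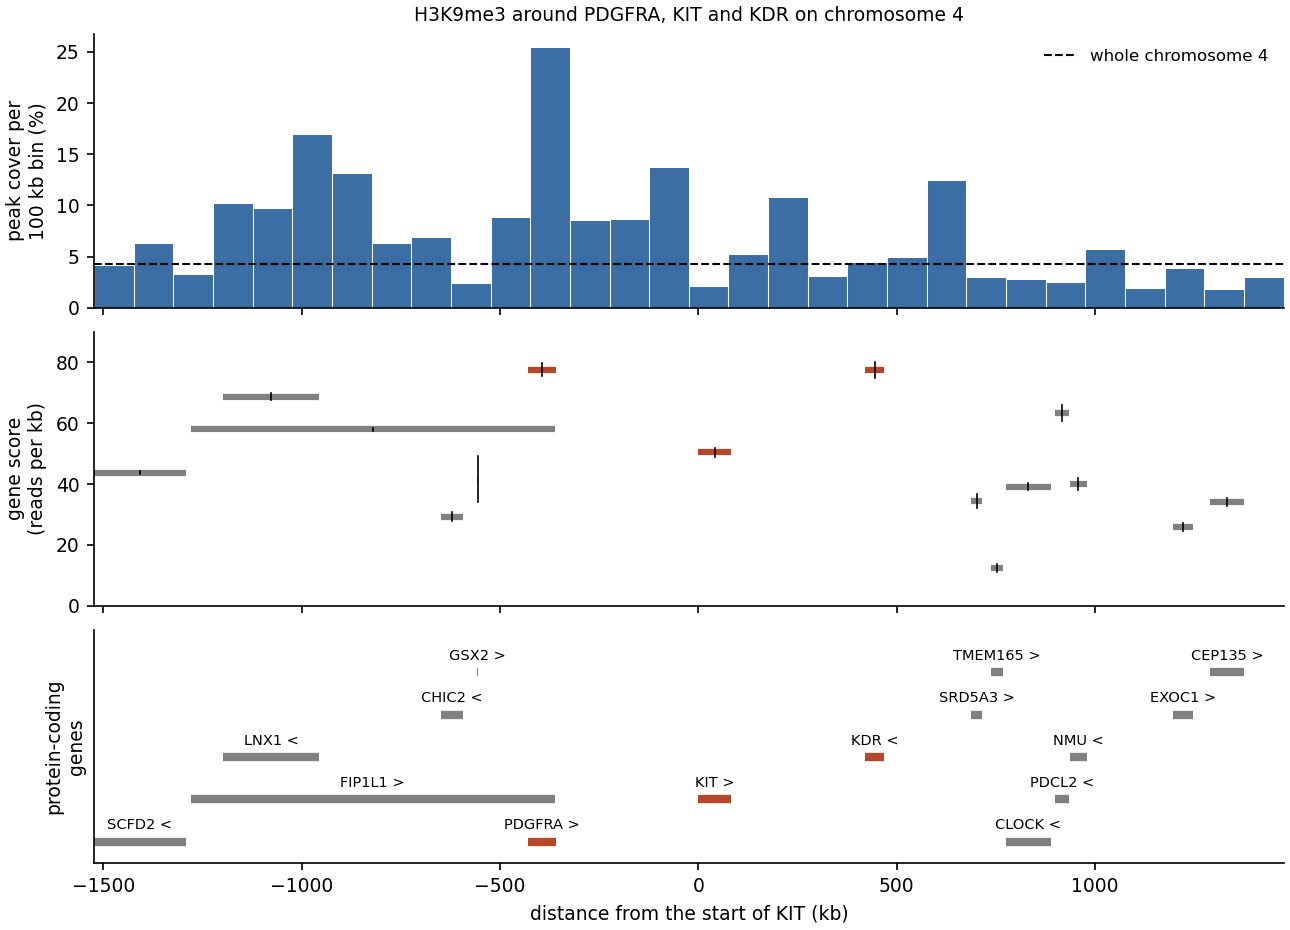
Peak cover in percent per 100 kb bin (top, dashed line for the whole chromosome), gene scores in reads per kb with 95% Poisson intervals (middle) and protein-coding gene intervals with their direction (bottom), by distance in kb from the KIT start on chromosome 4, the receptors in red. The bin over PDGFRA is highest at 25.5%, and the bin with the KIT start has 2.10%.

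By score, PDGFRA and KDR were the highest protein-coding genes of the region. It held 15 protein-coding genes including the receptors, and 11 of them had a peak, beside 43.7% of protein-coding symbols. Long intervals such as SCFD2 (493 kb) have more room for a peak, and the FIP1L1 interval shares the peaks of PDGFRA. After PDGFRA and KDR the highest scores were 68.7 for LNX1, a ubiquitin ligase gene, and 63.4 for PDCL2. SCFD2 scored 43.8, GSX2 41.2, NMU 40.1, CLOCK, a core circadian factor, 39.1, SRD5A3 34.4, CEP135 34.1, CHIC2 29.3 and EXOC1 25.8. The lowest score was 12.4, for TMEM165. KIT, at 50.4, thus lay below PDGFRA, KDR, LNX1, PDCL2 and the long FIP1L1 interval, and above the other genes of the region. Its start stood in a stretch of 53.7 kb without a peak. Other stretches were wider, such as the 112.05 kb that held the start of TMEM165. For comparison, the median peak-free stretch around protein-coding starts was 86.4 kb, and KIT ranked at the 37.0 percentile of them.

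FLT3 and FLT1 are also neighbours, on chromosome 13, and are transcribed in the same direction from the minus strand. FLT3 occupies chr13:28577411-28674729 and FLT1 chr13:28874489-29069265 (hg19). FLT1 scored 74.3 with 29 peaks and FLT3 38.9 with 3. The peak-free stretch around the FLT3 start was 227.7 kb long, at the 80.2 percentile of protein-coding starts. It contained the whole of PAN3, a poly(A) nuclease subunit gene with a score of 31.5, and ran into the far end of FLT1. The peak-free stretch around the FLT1 start was 16.2 kb, at the 16.8 percentile. How the sides of FLT3 compared depended on the window. Within 250 kb peaks covered 26.1% downstream and 2.16% upstream, within 500 kb 16.8% and 15.9%, and within 1 Mb the order turned, with 10.9% downstream and 16.7% upstream. The near downstream side holds PDX1, a homeobox gene of the pancreas, which scored 266 and was covered over 100% of its interval. For FLT1 the upstream side was the higher one, with 19.6% and 0.66% downstream within 250 kb, 21.8% and 10.4% within 500 kb, and 18.5% and 10.1% within 1 Mb. PRHOXNB, the nearest protein-coding gene to FLT3 on the far side, scored 73.9, and POMP, a proteasome assembly gene 164 kb from FLT1, scored 16.4.

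CSF1R (chr5:149432854-149492935, minus strand, hg19) lay in the widest peak-free stretch of the receptors. It measured 418 kb, at the 93.5 percentile of protein-coding starts, and contained 7 whole genes. These were PDE6A, SLC26A2, TIGD6, HMGXB3, CSF1R, PDGFRB and CDX1. PDGFRB, the beta receptor of platelet-derived growth factor and the partner of PDGFRA, lies next to CSF1R and scored 18.9 (17.6 to 20.3) without a peak. HMGXB3, on the other side, scored 26.2. Within 500 kb on each side peaks covered 2.93%, beside 6.0% over chromosome 5.

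The 3 cytokine receptors held 1 peak between them, in CSF2RB, while their surroundings differed. Of genes of like length, 40.7% held a peak for CSF2RB, 33.2% for CSF3R and 24.1% for EPOR, so few peaks are usual at these lengths. CSF3R (chr1:36931644-36948879, minus strand, hg19) held no peak, with the nearest 20.379 kb downstream and 20.422 kb upstream of its start. Beside it, 1.606 kb away, the mitochondrial ribosome gene MRPS15 scored 156 with 2 peaks over 54.8% of its length. On the other side the nearest protein-coding gene, the glutamate receptor gene GRIK3, lay 312 kb away and scored 62.0. CSF2RB (chr22:37309670-37336491, plus strand, hg19) had 18.9% cover within 500 kb upstream and 6.73% downstream. Of its neighbours, NCF4, a subunit of the phagocyte oxidase, scored 26.9 and C22orf33 scored 112, with 42.6% of it in peaks. EPOR (chr19:11487881-11495018, minus strand, hg19) held no peak in a stretch of 46.65 kb that also contained C19orf39, which scored 10.7. RGL3, 0.17 kb upstream, scored 62.6 with 2 peaks. From 500 kb upstream of EPOR to the gene 41.9% of the sequence lay in peaks, beside 1.95% downstream. This upstream side runs into the zinc finger gene cluster of chromosome 19, and includes ZNF627 (score 177, 75.8% in peaks), 213 kb away.

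Measured over the gene and 500 kb on each side, peak cover was above that of the whole chromosome for 7 of 9 receptors, beside 51.4% of protein-coding genes. The 3 genes of chromosome 4 share much of this sequence with each other, as do FLT3 and FLT1, so these are not 7 separate regions. Chromosome cover was taken over the length up to the last gene or peak. Gaps in the assembly were not removed, which lowers the chromosome values. The cover was 17.1% around FLT1 and 15.1% around FLT3 (chromosome 13: 4.68%), 12.6% around CSF2RB (4.92%) and 21.8% around EPOR (17.8%). It was 9.27% around PDGFRA, 8.80% around KIT and 5.76% around KDR (4.24%). CSF3R, with 4.29% beside 5.30%, and CSF1R, with 2.93% beside 6.0%, were below their chromosomes. For EPOR, CSF1R and CSF3R the direction depended on the window. EPOR had 9.85% with 250 kb on each side, below its chromosome, and 28.3% with 1 Mb. CSF1R had 9.08% with 1 Mb, above its chromosome, and 1.42% with 250 kb. CSF3R had 5.48% with 250 kb, above its chromosome, and 4.30% with 1 Mb. CSF2RB was above at every window, with 14.7% at 250 kb and 6.94% at 1 Mb.

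**Figure D4:**
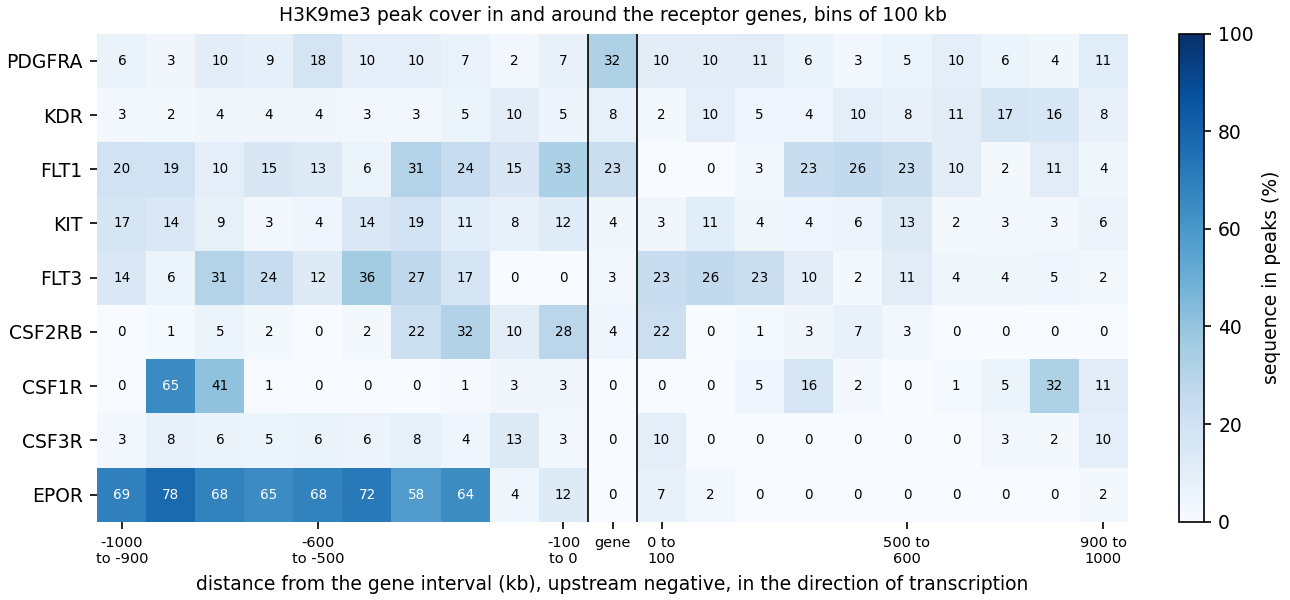
Peak cover in percent of each 100 kb bin within 1 Mb of each receptor gene, upstream negative in the direction of transcription, with the gene itself as the middle column and the colour scale in percent. EPOR shows high bins on the far upstream side, FLT3 has cover downstream and none in its nearest 200 kb upstream, and CSF1R has little or no cover in the bins beside it.

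The receptors were then set beside related genes by class. The other receptor tyrosine kinases, 48 in all, had a median score of 43.1. Of these, 24 scored above the all-symbol median, beside 50.0% of all and 37.5% of protein-coding symbols. A peak lay in 28 of 48, or 58.3%, beside 36.8% and 43.7%, but these genes are long, with a median length of 103 kb beside 27.0 kb for protein-coding symbols. Among them NTRK3 (121), a neurotrophin receptor, and ROR2 (78.7) were highest, and MST1R (19.1) and PDGFRB (18.9) lowest. NTRK3 lies between 60 and 90 Mb on chromosome 15, where KBM7 is known to carry an extra copy of a segment. The score is not corrected for copy number, and the part of copy number in it was not tested. FLT4, the lymphatic receptor related to FLT1 and KDR, scored 51.2 with 3 peaks over 3.43% of the gene. The other type I cytokine receptors, 30 in all, had a median score of 40.2. Here 12 exceeded the all-symbol median, beside the same 50.0% and 37.5%, and 16, or 53.3%, held a peak, beside 36.8% and 43.7%. These genes too are longer than most, with a median length of 50.3 kb. CSF2RA and IL3RA, the alpha chains that pair with CSF2RB, had 1 read and 0 reads. CRLF2 and IL9R also had 0. These 4 genes lie in the pseudoautosomal regions shared by X and Y, so reads from both copies can match 2 places. How such reads were counted is not stated. These 4 genes are in the list's median of 40.2, which was 41.7 over the 26 other genes.

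Of the ligands, 19 of 20 were found, with a median of 37.2. Of these, 3 lay above the median of all symbols, 11 above the protein-coding median, and 4 had a peak, or 21.1% beside 36.8% and 43.7%. The ligand genes are short, with a median length of 16.3 kb beside 27.0 kb for protein-coding symbols, and so have less room for a peak. KITLG, the ligand of KIT, scored 35.1. PDGFB (57.9) and CSF1 (47.3) were highest and VEGFB (15.5) and FLT3LG (13.5) lowest. The 40 signalling genes had the lowest median, 22.4. Of them 4 scored above the all-symbol median, 11 above the protein-coding median, and 12 of 40 held a peak, beside 36.8% and 43.7%. Their median length was 76.2 kb. PLCG1, the phospholipase that KDR and PDGF receptors recruit, stood out with a score of 145 and 58.0% of the gene in peaks. MAP2K1, with no peak and in the same part of chromosome 15 as NTRK3, followed with 62.3, and STAT5A (14.6) and SHC1 (13.4) were lowest.

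**Figure D5:**
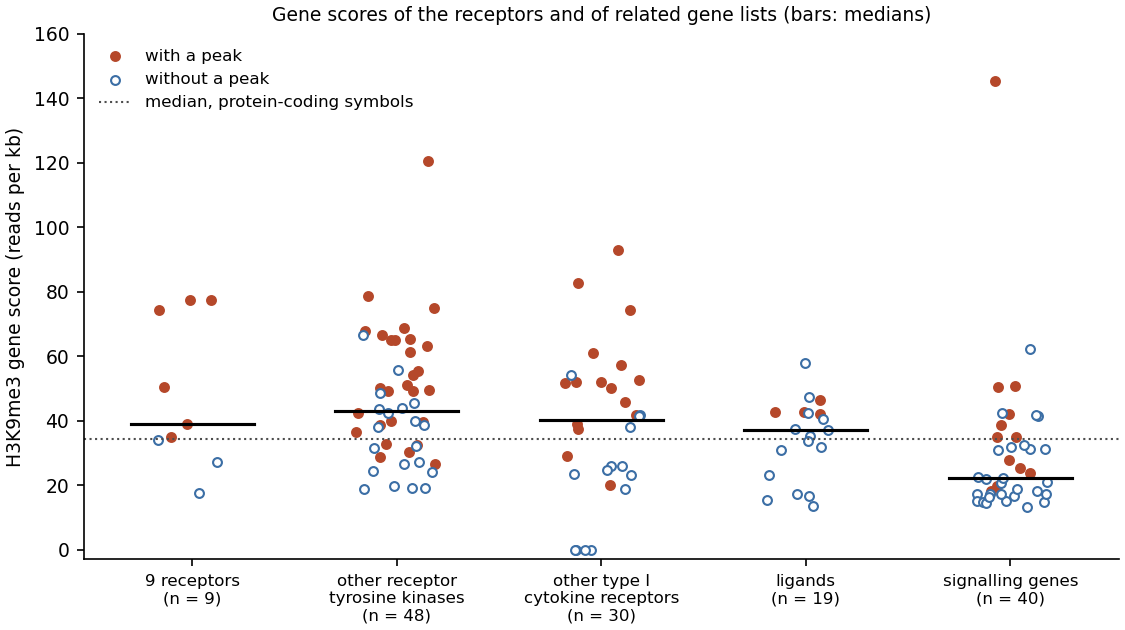
Gene scores in reads per kb for the 9 receptors and the 4 related lists. Each point is a gene, filled where it holds a peak, black bars are list medians and the dotted line is the protein-coding median. The receptors have a median of 38.9 and the signalling genes the lowest, 22.4.

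Among all 87 receptors of these classes PDGFRA ranked 1 by peak cover, with OSMR, a receptor of oncostatin M, at rank 2 and FLT1 at rank 3. KDR ranked 17, CSF2RB 28, KIT 31 and FLT3 38. By score PDGFRA ranked 5, KDR 6, FLT1 9, KIT 30, FLT3 50, CSF2RB 57, CSF1R 58, CSF3R 67 and EPOR 83. Without the 4 pseudoautosomal genes EPOR was the lowest, at rank 83 of 83. PDGFRA and FLT1 were thus high on both measures, and KDR on the score more than on the peaks.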

How the data were processed

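The authors deposited 2 kinds of values for the H3K9me3 library: a table of 40237 gene intervals and a peak list. Each interval has a raw read count and a score, here a signal in reads per kb, that the authors made by dividing the count by the interval length. It is not scaled to depth, IgG or copy number, so it compares genes within this library only. Peaks were deposited as coordinates on a 150 bp grid, without height or significance. Bowtie2, MACS and hg19 are named per the submitters' processing notes. Read filters, peak thresholds and the use of IgG are not given in the sources used.

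Reads in gene intervals summed to 78512210, and 54.7% of intervals overlap another and share reads. For the 280 symbols with several intervals the highest score was used. Peak overlap meant 1 bp or more. Gene types came from RefSeq on GRCh38.p14, used for names only, and 18632 symbols matched a protein-coding gene. Intervals are exact Poisson at 95%, for counting error only, since reads are not independent molecules. The limit of a count of 0 is 3 counts. With 1 library no test was run. The steps were tested on simulated data. The genes named are the 9 receptors, their neighbours, the chromosome 4 region, and the 2 highest and 2 lowest of each list plus fixed relatives. Receptors and lists were chosen with earlier results of these data known. Alternatives changed the reference set, peak width, overlap and window. Calculations ran in Python 3.11.15 with pandas 2.3.3, numpy 2.4.6 and scipy 1.17.1, and plots were drawn with matplotlib 3.10.9.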

Additional observations from a re-analysis of the deposited data

How the results depend on the processing

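No paired analysis was possible because the study holds 1 H3K9me3 library. Peak cover of the chromosome 4 region, 7.10%, was 5.14% with peaks of 900 bp or more only and 8.14% over its middle 2 Mb. Against the protein-coding median in place of the median of all symbols, 11 ligands in place of 3 and 11 signalling genes in place of 4 lay above it. Score percentiles of all 9 receptors were higher among protein-coding symbols, by 3.85 to 12.5 points. Peaks of 900 bp or more alone lowered the cover of 4 receptors, by at most 2.39 points, and that of KIT from 3.62% to 1.45%. With 5 kb added on both sides the cover of CSF2RB went from 4.47% to 11% and that of CSF3R from 0 to 6.82%. Then 7 receptors in place of 6 had a peak. The share of all symbols with a peak in such wider intervals is not given here, so this count has no reference. Windows of 250 kb and 1 Mb turned the direction against the chromosome for EPOR, CSF3R and CSF1R, as given with those values. Leaving out the 4 pseudoautosomal genes, chosen after seeing the data, left 12 cytokine receptors above the median of all symbols. An alternative chosen after seeing the data, peak-free stretches with only those peaks, lengthened 6 of 9, by up to 34.05 kb. Depth limits EPOR most, at 126 reads.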

Other observations

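Genes in this paragraph were chosen after their values were seen. Of the 30 other type I cytokine receptors, 7 lie on chromosome 5. Of these, 6 scored above the median of all symbols, beside 50.0% of all and 37.5% of protein-coding symbols. A peak was held by 5, beside 36.8% and 43.7%, but several are long, such as GHR (298 kb) and PRLR (182 kb). OSMR, a receptor chain for oncostatin M, scored 92.9 with 12 peaks over 27.4% of the gene. PRLR, the prolactin receptor, scored 82.7 with 17 peaks over 13.8%. LIFR, the receptor of leukemia inhibitory factor, lies 237.504 kb from OSMR and scored 74.3 with 14 peaks over 10.6%. GHR, the growth hormone receptor, scored 57.3, IL7R, a receptor of early lymphoid cells, 54.2 without a peak, and IL31RA 51.7. IL6ST, the gp130 chain that OSMR and LIFR use for signalling, scored 23.1 without a peak. No comparison with other chromosomes was tested.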
